A study of Homo sapiens with 15 samples.

Results

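The dual-specificity MAP kinase phosphatases (MKPs) DUSP1, DUSP2, DUSP4, DUSP5, DUSP6, DUSP7, DUSP8, DUSP9, DUSP10 and DUSP16 were followed by bulk RNA-seq in MDA-MB-468 cells, an established basal, triple-negative human breast cancer line with very high EGFR. Members were taken by gene symbol and matched to the Ensembl identifiers of the count table, which gave 10 genes of the 61552 listed. The 15 libraries formed 5 groups of 3. In the EGF, cSNX and ERL groups the parental cells were serum starved for 12 h and then received 10 ng/mL EGF, the ligand of EGFR, for 12 h. EGF cells had no further agent, cSNX cells also received 10 µM cSNX1.3, a peptide directed at the binding of EGFR to Sorting Nexin 1 and thereby at the nuclear pool of EGFR, and ERL cells also received 15 µM erlotinib, an inhibitor of the EGFR kinase. The shEGFR-WT and shEGFR-NLS lines both carried an IPTG-inducible shRNA against the 3′ untranslated region of endogenous EGFR and were kept in 1 mM IPTG from 2 days before the experiment. They re-expressed EGFR-GFP, as wild type in shEGFR-WT and with a mutated nuclear localization sequence in shEGFR-NLS. Both lines were treated with EGF, with a dose and time that are not given in the sources used here, as is whether either line was a single clone. Because the lines differ from the parental cells in several ways at once, each line was tested only against the other.

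MKPs remove phosphate from both the threonine and the tyrosine of the activation loop of MAP kinases and so switch them off. The inducible nuclear enzymes DUSP1, DUSP2, DUSP4 and DUSP5 are products of genes that respond to growth factors and stress, and DUSP5 acts on ERK. DUSP6, DUSP7 and DUSP9 are cytoplasmic and prefer ERK, while DUSP8, DUSP10 and DUSP16 prefer the stress kinases JNK and p38. Several of these genes are themselves transcribed in response to ERK activity, which closes a negative feedback loop below receptors such as EGFR.

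To show the regulatory sequence next to the values, the 250 bases before the RefSeq start were searched on both strands. The motifs were the CRE (TGACGTCA), the AP-1 site (TGACTCA or TGAGTCA), the ETS motif CCGGAA, the CCAAT box (CCAAT) and the CArG box. RefSeq windows on GRCh38.p14 matched 8 of the 10 members, in 10 windows, since DUSP9 and DUSP10 each had more than one. A CRE was present in 1.65% of all 35116 windows, and among the members in DUSP1 and DUSP8. A CCAAT box occurred in 32.0% of windows and in DUSP6, DUSP8 and DUSP10. An AP-1 site was found in 4.203% of all windows, CCGGAA in 14.5% and a CArG box in 1.16%, and in none of the members' windows. The shorter ETS form GGAA was not searched, and it can be read in the DUSP6 and DUSP8 windows printed below. DUSP6 is printed because it fell furthest with erlotinib, DUSP1 because it fell less and has a CRE, and DUSP8 because it has the same element and did not pass the test with erlotinib. All 3 lie on the minus strand and are written 5′ to 3′ along the gene, at chr12:89352502-89352751 for DUSP6, chr5:172771196-172771445 for DUSP1 and chr11:1572272-1572521 for DUSP8. Capitals mark the CRE and the CCAAT box, the latter as ATTGG on the opposite strand.
DUSP6: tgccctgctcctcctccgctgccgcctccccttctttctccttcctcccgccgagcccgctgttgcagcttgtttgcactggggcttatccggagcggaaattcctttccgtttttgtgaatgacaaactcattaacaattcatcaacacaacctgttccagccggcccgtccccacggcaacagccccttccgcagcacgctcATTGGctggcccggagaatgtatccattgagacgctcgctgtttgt
DUSP1: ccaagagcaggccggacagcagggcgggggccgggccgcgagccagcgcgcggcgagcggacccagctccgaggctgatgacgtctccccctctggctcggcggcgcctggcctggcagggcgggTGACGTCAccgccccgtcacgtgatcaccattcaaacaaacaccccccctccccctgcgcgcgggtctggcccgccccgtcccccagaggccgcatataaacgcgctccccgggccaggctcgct
DUSP8: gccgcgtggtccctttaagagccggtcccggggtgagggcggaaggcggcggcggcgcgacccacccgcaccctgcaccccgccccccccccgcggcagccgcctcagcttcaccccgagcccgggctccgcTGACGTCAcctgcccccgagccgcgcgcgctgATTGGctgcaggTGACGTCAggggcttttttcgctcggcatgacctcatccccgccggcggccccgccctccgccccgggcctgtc
The CRE of DUSP1 began 125 bases before the start. DUSP8 held 2, beginning 118 and 74 bases before it, and the CCAAT box of DUSP6 began 46 bases before it. A match to these letters is a description and not an occupied site.

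The libraries held between 22915676 and 35900649 counted reads, and the 10 members between 7 and 4283 reads each, so that counting error weighs mainly on the lowest values. EGFR averaged 4733 CPM (counts scaled to library size) in EGF, 6143 in cSNX, 4708 in ERL, 1340 in shEGFR-WT and 1727 in shEGFR-NLS. Reads of the re-expressed receptor can be part of the last 2 values. EGFR was higher in shEGFR-NLS than in shEGFR-WT by 0.37 ± 0.09 (log2, SE; edgeR adjusted p = 0.00367). Its estimate was 0.38 ± 0.11 in cSNX vs EGF (adjusted p = 0.0622) and 0.00 ± 0.11 in ERL vs EGF (adjusted p = 0.995). Compared with ERL, EGFR was higher in cSNX by 0.38 ± 0.11 (adjusted p = 0.0102). All 8 epithelial markers were detected, with a summed level of 19290 to 25622 CPM in EGF, 22330 to 29010 in cSNX, 10418 to 12630 in ERL, 21731 to 25001 in shEGFR-WT and 13523 to 16722 in shEGFR-NLS. Of these markers 5 fell and 1 rose in ERL, 1 rose in cSNX, and 7 fell in shEGFR-NLS relative to its control. At an adjusted p under 0.05 in edgeR, 44.0% of all genes were called in ERL, 6.07% in cSNX and 41.4% in shEGFR-NLS. The part of the marker changes in the phosphatase results was not tested. PGR had 0 counts in every library and ESR1 averaged 4.21 to 7.18 CPM across the groups. Of 12 markers of other cell types, which summed to 15.6 to 25.2 CPM, 5 had at most 3 counts in every library. DCN was at 0 and PTPRC, the pan-leukocyte marker, had at most 7 counts. COL1A1 had 268 to 583 counts, PECAM1 22 to 185, NCAM1 13 to 104 and VWF 1 to 29. Of the 4 of these markers with enough reads to test, 2 rose and 1 fell in ERL, none was called in cSNX by edgeR or DESeq2 (1 was higher at an unadjusted p under 0.05), and 1 rose and 1 fell in shEGFR-NLS.

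To compare the members with each other, levels were expressed as TPM, which scales reads to the summed exon length of each gene and to library size. In EGF, DUSP4 stood at 49.2 ± 2.57 TPM (SD, n = 3) and DUSP5 at 40.7 ± 2.99, followed by DUSP16 at 23.3 ± 1.20 and DUSP1 at 14.02 ± 1.65. DUSP6 was at 11.7 ± 0.382 TPM and DUSP2 at 8.65 ± 1.57, and DUSP10, DUSP7, DUSP9 and DUSP8 lay between 4.68 and 6.82 on the same scale. The inducible nuclear genes DUSP4 and DUSP5 thus led the family under EGF.

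The summed TPM of the family was 158 to 180 in EGF, 199 to 218 in cSNX, 85.9 to 90.9 in ERL, 134 to 147 in shEGFR-WT and 120 to 125 in shEGFR-NLS. No range overlapped another. DUSP4 made up 28.9% ± 0.487 (SD, n = 3) of the sum in EGF and 7.03% ± 0.438 in ERL. DUSP16 made up 13.7% ± 0.283 in EGF and 39.9% ± 2.17 in ERL, where it became the most abundant member. In shEGFR-WT the leading gene was again DUSP4, at 39.0% ± 0.719, and in shEGFR-NLS it held 27.3% ± 1.18.

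**Figure D1:**
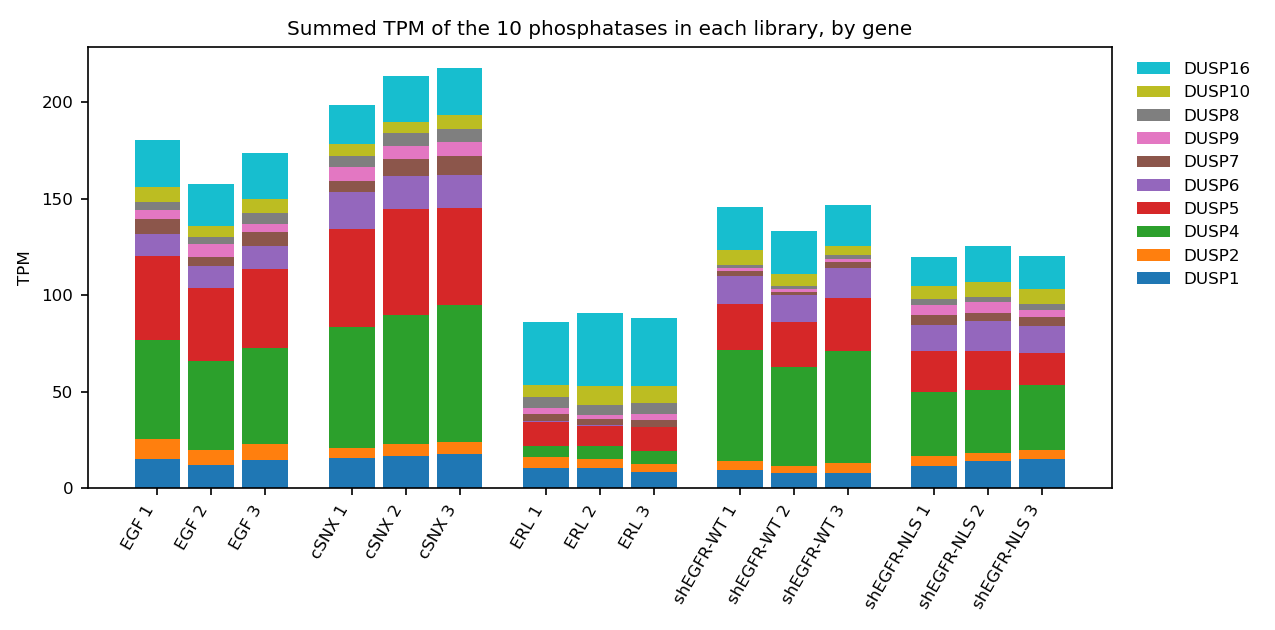
Summed TPM (y axis) of the 10 MKPs in each of the 15 libraries (x axis, 3 a group), with 1 colour for each gene. The ERL columns, at 85.9 to 90.9 TPM, are the lowest, and in them the DUSP16 block, at a mean of 39.9%, takes the place that DUSP4 has in the other columns.

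The first comparison asked what EGFR kinase inhibition did to the family under EGF. Of the 10 members, 7 fell in ERL relative to EGF and 1 rose, at an adjusted p under 0.05 in edgeR's quasi-likelihood test. Across all 15738 genes tested, 44.0% were called, 21.2% lower and 22.8% higher. All 4 inducible nuclear genes and all 3 cytoplasmic ERK-directed genes fell, and of the 3 JNK- and p38-directed genes DUSP16 rose and the other two did not pass. DESeq2 called the same numbers in each direction. In bulk RNA, fewer cells that express a gene and less RNA per cell cannot be told apart. The libraries of the groups did not overlap for 8 members, compared with 52.3% of all genes. The median change of the members was -0.99 on the log2 scale and that of all genes was 0.01.

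DUSP6 (ENSG00000139318, chr12:89347235-89352501, minus strand), the cytoplasmic ERK phosphatase, had 11.95, 13.8 and 12.7 CPM in EGF and 0.593, 0.409 and 0.247 CPM in ERL. Each ERL library was far below each EGF library, with 20, 10 and 7 reads against 291, 360 and 344. The change was -4.89 ± 0.21 (log2, SE; adjusted p = 1.09e-10), a 29.6-fold fall, and only 7 of the genes tested had a lower estimate. In the annotation used, 28.6% of the exon length of DUSP6 is shared with a lncRNA on the opposite strand that itself had 0 to 9 counts, and the reads were counted without strand. How reads in the shared part were assigned is not given. The TPM of DUSP6 and its place among the members are therefore less certain.

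DUSP4 (ENSG00000120875, chr8:29333064-29350684, minus strand), a nuclear phosphatase of ERK and JNK, had 102, 103 and 99.5 CPM in EGF and 11.3, 11.7 and 12.03 CPM in ERL. The fall, -3.11 ± 0.09 on the log2 scale (adjusted p = 1.46e-12), was 8.64-fold and varied little between libraries. DUSP5 (ENSG00000138166, chr10:110497907-110511533, plus strand), the nuclear ERK phosphatase, had 30.2, 29.2 and 28.3 CPM in EGF. In ERL it had 8.78, 6.96 and 7.80 CPM, a change of -1.88 ± 0.11 (adjusted p = 3.51e-09). Again no ERL library came near the EGF libraries.

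The remaining ERK-directed members moved less. DUSP7 (ENSG00000164086, chr3:52048919-52056571, minus strand) went from 12.1, 8.10 and 10.6 CPM in EGF to 5.07, 4.62 and 5.26 in ERL (log2 change -1.03 ± 0.17, adjusted p = 0.000197). DUSP9 (ENSG00000130829, chrX:153642492-153651326, plus strand) went from 3.33, 5.46 and 3.40 to 2.52, 1.43 and 1.91 CPM (-1.03 ± 0.23, adjusted p = 0.00175). For DUSP9 one EGF library stood well above the other two, but the groups stayed apart.

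DUSP1 (ENSG00000120129, chr5:172768096-172771195, minus strand), an early response gene whose product acts on p38, JNK and ERK, had 8.42, 7.49 and 8.03 CPM in EGF. It had 5.66, 5.44 and 4.30 CPM in ERL and fell by 0.62 ± 0.14 on the log2 scale (adjusted p = 0.00174), the smallest of the 7 falls. DUSP2 (ENSG00000158050, chr2:96143169-96145440, minus strand), first known from activated lymphocytes, had 5.504, 4.39 and 4.26 CPM in EGF and 2.91, 2.33 and 1.98 in ERL, a change of -0.95 ± 0.19 (adjusted p = 0.000756). Both genes were thus lower in every ERL library than in any EGF library.

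The JNK- and p38-directed genes behaved otherwise. DUSP16 (ENSG00000111266, chr12:12473282-12562863, minus strand), a JNK phosphatase, had 47.0, 47.8 and 46.5 CPM in EGF and 62.7, 69.5 and 62.9 in ERL, and rose by 0.47 ± 0.08 (adjusted p = 0.000292). DUSP8 (ENSG00000184545, chr11:1554051-1572271, minus strand) had 6.08, 5.65 and 7.88 CPM in EGF and 7.44, 6.59 and 7.13 in ERL. DUSP10 (ENSG00000143507, chr1:221701424-221742089, minus strand) had 5.997, 4.97 and 5.37 CPM in EGF and 5.04, 6.96 and 6.24 in ERL. For these last 2 genes the groups overlapped, and the 95% confidence intervals of the log2 change, -0.20 to 0.43 for DUSP8 and -0.17 to 0.49 for DUSP10, leave falls as large as those of the other members outside.

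**Figure D2:**
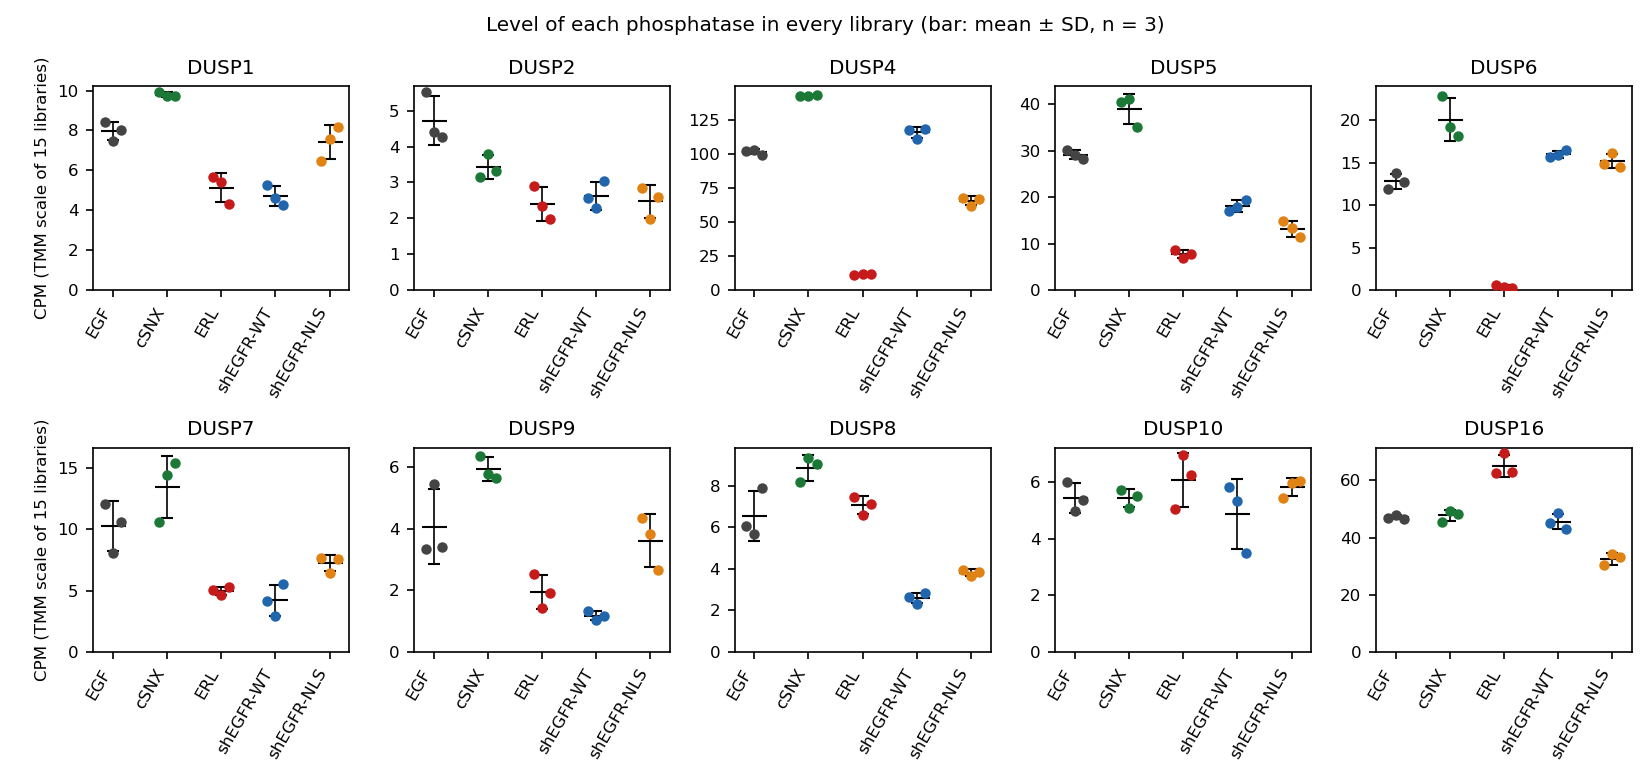
Level of each MKP in CPM (y axis, linear, from 0) in every library of the 5 groups (x axis); points are libraries and black bars the mean ± SD, n = 3. DUSP6 falls to 0.247 to 0.593 CPM and DUSP4 to 11.3 to 12.03 CPM in ERL, whereas DUSP16 is highest there, at 62.7 to 69.5 CPM.

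The second comparison asked what cSNX1.3 did under the same EGF treatment, against the same 3 EGF libraries. No library came from cells given a control peptide, so effects of cSNX1.3 and of peptide treatment as such cannot be told apart. Here 3 members rose in cSNX relative to EGF and none fell in edgeR or in DESeq2 (at an unadjusted p under 0.05, 7 were higher and 1 lower), while 6.07% of the 15738 genes were called, 3.38% higher and 2.69% lower. The 3 were DUSP4, DUSP5 and DUSP6. Because both agents were compared with the same EGF libraries, each has its own values given here and no overlap of the calls was computed. Groups did not overlap for 7 members, compared with 25.7% of all genes. The median log2 change of the members was 0.41 and that of all genes 0.00.

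DUSP4 had 143, 143 and 143 CPM in cSNX, above every EGF library, and rose by 0.50 ± 0.08 (log2, SE; adjusted p = 0.000699), or 1.41-fold. DUSP6 had 22.9, 19.2 and 18.2 CPM and rose by 0.65 ± 0.14 (adjusted p = 0.0085), or 1.57-fold. DUSP5 had 40.5, 41.1 and 35.2 CPM and rose by 0.42 ± 0.10 (adjusted p = 0.0228), or 1.33-fold. These rises were all under 1 log2 unit. The DUSP4 call held when any 1 library was left out, with adjusted p up to 0.00795. DUSP5 passed in only 1 of the 6 fits without a library, with adjusted p up to 0.136, and DUSP6 missed the threshold without EGF replicate 1 (adjusted p = 0.058), so that without that library 1 member was called.

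Of the 7 members that did not pass, DUSP9 had 6.37, 5.76 and 5.66 CPM in cSNX and an estimate of 0.55 ± 0.21 (adjusted p = 0.15). DUSP8 had 8.15, 9.35 and 9.05 CPM and an estimate of 0.44 ± 0.15 (adjusted p = 0.0991). Both were above every EGF library, as was DUSP1 with 9.94, 9.72 and 9.71 CPM (0.30 ± 0.13, adjusted p = 0.23). DUSP7, with 10.6, 14.4 and 15.4 CPM, overlapped the EGF libraries (0.40 ± 0.16, adjusted p = 0.186). In single fits without a library the first 2 and DUSP7 crossed the threshold: DUSP9 without EGF replicate 2 (adjusted p = 0.0272), DUSP8 without EGF replicate 3 (0.0428) and DUSP7 without cSNX replicate 1 (0.0477).

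DUSP2 was the member with the lowest estimate, with 3.16, 3.798 and 3.32 CPM in cSNX, each below every EGF library (-0.46 ± 0.19, adjusted p = 0.178). DUSP10 had 5.73, 5.09 and 5.51 CPM and DUSP16 had 45.6, 49.5 and 48.3, close to their EGF values. Their 95% intervals ran from -0.33 to 0.34 for DUSP10 and from -0.16 to 0.20 for DUSP16.

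**Figure D3:**
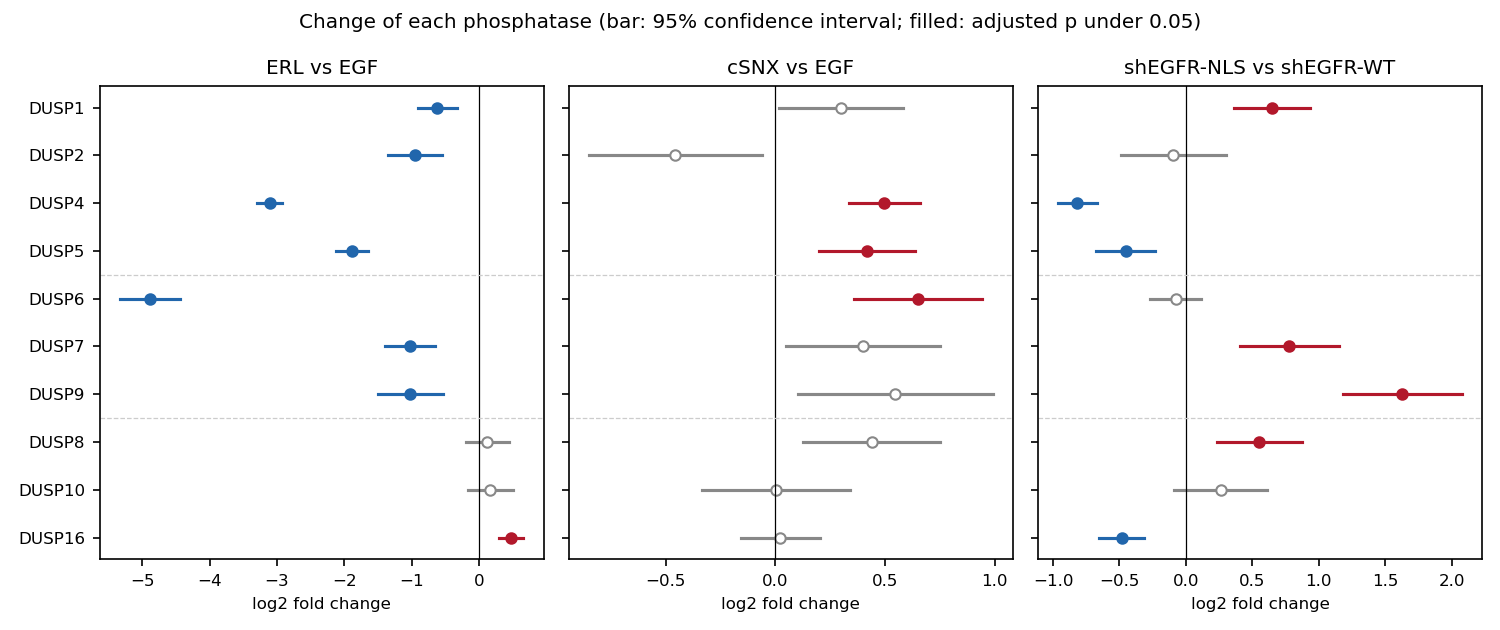
Log2 fold change (x axis; scales differ between panels) of each MKP in ERL vs EGF, cSNX vs EGF and shEGFR-NLS vs shEGFR-WT, with 95% confidence intervals; filled points have an adjusted p under 0.05, and dashed lines part the 3 classes. The 7 nuclear and ERK-directed genes, from -4.89 to -0.62, all lie below 0 in the ERL panel, and the shEGFR-NLS panel shows called genes on both sides, from -0.82 for DUSP4 to 1.63 for DUSP9.

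Set directly against each other, without the EGF libraries as a base, cSNX was higher than ERL for 7 members and lower for DUSP16, where 56.1% of all genes were called, 27.6% higher and 28.5% lower in cSNX. Groups did not overlap for 9 members, against 60.2% of all genes. The differences were 5.54 ± 0.21 (log2, SE) for DUSP6, 3.61 ± 0.09 for DUSP4 and 2.30 ± 0.11 for DUSP5. DUSP9, DUSP7 and DUSP1 differed by 1.57, 1.43 and 0.92, and DUSP16 by -0.45 ± 0.08 (adjusted p = 0.000275). DUSP2 was close to the threshold (0.50 ± 0.19, adjusted p = 0.0393) and missed it with no filter on low counts (0.0598), with at least 10 counts in every library (0.0511), with only the 2 groups compared (0.0547) and in 4 of the 6 fits without a library, those without cSNX replicate 2 or 3 or ERL replicate 2 or 3, with adjusted p up to 0.154. DUSP8 (0.32, adjusted p = 0.0743) and DUSP10 (-0.16, adjusted p = 0.396) did not pass.

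The third comparison asked what the mutation of the nuclear localization sequence did, with both lines expressing EGFR-GFP. In shEGFR-NLS relative to shEGFR-WT, 4 members rose and 3 fell, where 41.4% of the 15805 genes tested were called, 20.4% higher and 21.0% lower. DUSP1, DUSP7, DUSP8 and DUSP9 rose and DUSP4, DUSP5 and DUSP16 fell, so that the nuclear class and the JNK- and p38-directed class each had calls in both directions. Groups did not overlap for 7 members, against 52.2% of all genes, and all 7 calls held when any 1 library was left out. The median log2 change of the members was 0.09 and that of all genes 0.01.

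DUSP9 showed the largest difference, with 1.32, 1.04 and 1.16 CPM in shEGFR-WT and 4.35, 3.82 and 2.67 CPM in shEGFR-NLS. It rose by 1.63 ± 0.21 (log2, SE; adjusted p = 1.32e-05), or 3.09-fold. DUSP7, of the same class, had 4.17, 2.91 and 5.51 CPM in shEGFR-WT and 7.67, 6.47 and 7.58 in shEGFR-NLS (0.78 ± 0.17, adjusted p = 0.00199). The third gene of the class, DUSP6, had 15.6, 15.9 and 16.5 CPM in shEGFR-WT and 14.9, 16.1 and 14.6 CPM in shEGFR-NLS. Its groups overlapped (adjusted p = 0.525), and the 95% interval of its change, -0.27 to 0.11, lay below those of DUSP7, 0.41 to 1.15, and DUSP9, 1.18 to 2.08.

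DUSP4 had 118, 111 and 118 CPM in shEGFR-WT and 67.9, 62.2 and 67.3 CPM in shEGFR-NLS, a fall of 0.82 ± 0.07 (adjusted p = 9.14e-08). DUSP5 had 17.1, 17.9 and 19.5 CPM and then 14.9, 13.4 and 11.49 (-0.45 ± 0.10, adjusted p = 0.00244). DUSP1 went the other way, from 5.29, 4.62 and 4.29 CPM to 6.49, 7.58 and 8.18 (0.65 ± 0.13, adjusted p = 0.00103). Among the nuclear genes, DUSP2 had 2.58, 2.28 and 3.04 CPM in shEGFR-WT and 2.85, 1.97 and 2.60 in shEGFR-NLS, which overlap (adjusted p = 0.718).

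In the JNK- and p38-directed class, DUSP16 had 45.3, 48.5 and 43.0 CPM in shEGFR-WT and 30.3, 34.2 and 33.3 CPM in shEGFR-NLS, a change of -0.48 ± 0.08 (adjusted p = 0.000156). DUSP8 had 2.65, 2.31 and 2.82 CPM and then 3.95, 3.64 and 3.84 (0.55 ± 0.15, adjusted p = 0.00804). DUSP10 had 5.82, 5.35 and 3.49 CPM and then 5.45, 5.98 and 6.05, with 1 low shEGFR-WT library (0.26 ± 0.17, adjusted p = 0.223). DUSP8P5, a pseudogene of DUSP8, had 3 to 14 reads in every library, and the counting could split reads between such copies, which leaves the values of DUSP8 less certain. The pseudogenes of the family found in the table, 5 of 9 listed, summed to at most 0.450 CPM in any library.

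The effect of the mutation and the effect of each agent share no library, and their difference was tested in 1 fit of all 15 libraries. The mutation effect differed from the cSNX effect for 5 members, 1 with a higher and 4 with a lower value, where 23.1% of 16524 genes were called (11.3% higher, 11.8% lower). It differed from the ERL effect for 8 members, 7 higher and 1 lower, where 44.7% were called (22.6% higher, 22.1% lower). DUSP4 and DUSP5 rose with cSNX1.3 and fell with the mutation, and for both the difference passed the test, at -1.31 and -0.87 on the log2 scale. DUSP8 and DUSP10 passed neither test.

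Over the 5 groups, the spread of the group means was widest for DUSP6, at 48.2-fold between cSNX and ERL, followed by 12.2-fold for DUSP4, 5.04-fold for DUSP9 and 4.97-fold for DUSP5. DUSP10 varied least, at 1.24-fold, and each group overlapped its neighbour in the order. For DUSP4 the order was cSNX, shEGFR-WT, EGF, shEGFR-NLS and ERL, and for DUSP5 it was cSNX, EGF, shEGFR-WT, shEGFR-NLS and ERL, with no overlap between neighbours in either. For DUSP6 the order was cSNX, shEGFR-WT, shEGFR-NLS, EGF and ERL, and the lines overlapped each other only. DUSP9 and DUSP8 were lowest in shEGFR-WT, at 1.18 ± 0.1400 CPM (SD, n = 3) and 2.59 ± 0.260 CPM. DUSP1 and DUSP7 were lowest in shEGFR-WT too, but overlapped ERL there. DUSP2 was highest in EGF, at 4.72 CPM, and overlapped among shEGFR-WT, shEGFR-NLS and ERL. DUSP16 overlapped among cSNX, EGF and shEGFR-WT.

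The kinases that the MKPs act on were measured alongside. Of the 10 MAP kinases tested, 1 was higher and 3 lower in ERL than in EGF, and none was called in cSNX by edgeR or DESeq2 (1 was higher at an unadjusted p under 0.05). For this list and those below, the share called among all genes was 44.0% in ERL, 6.07% in cSNX and 41.4% in shEGFR-NLS. MAPK3, an ERK gene, did not pass in ERL (0.24, log2), in cSNX (-0.13) or in shEGFR-NLS (-0.16). The JNK gene MAPK9 fell by 0.30 in ERL (adjusted p = 0.00881) and rose by 0.26 in shEGFR-NLS (adjusted p = 0.00465), and MAPK8 passed in neither (0.11 and 0.03). MAPK10, the JNK gene of neurons, was at 0.604 CPM in EGF. It rose by 1.25 in ERL, although the libraries overlapped, and fell by 0.91 in shEGFR-NLS. Of the p38 genes, MAPK12 fell by 0.40 in ERL, and MAPK11, MAPK13 and MAPK14 did not pass in any of the 3 comparisons (-0.21 to 0.13). The ERK5 gene MAPK7 fell by 0.38 in ERL and rose by 0.29 in shEGFR-NLS.

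Of 7 MAP kinase kinases, 2 were higher and 3 lower in ERL, 1 was higher in cSNX (2 higher and 1 lower in DESeq2), and 2 were higher and 3 lower in shEGFR-NLS. The direct ERK activator MAP2K1 fell by 0.64 ± 0.09 in ERL (adjusted p = 2.45e-05), MAP2K7 by 0.49, and MAP2K5 and MAP2K6 rose by 0.63 and 0.86. The tyrosine-specific MAP kinase phosphatases PTPN5, PTPN7 and PTPRR had too few reads to be tested.

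Of the 17 atypical dual-specificity phosphatases, most of which lack the kinase-binding domain of the MKPs, 12 were tested in ERL and cSNX. In ERL 6 rose and none fell in edgeR or DESeq2, nor was any lower at an unadjusted p under 0.05. Of all genes, 22.8% were called higher and 21.2% lower there. The largest estimates were those of STYXL2 (2.28, at a mean of 0.114 CPM in EGF), DUSP19 (1.25), DUSP28 (0.86) and STYXL1 (0.33). None was called in cSNX by edgeR or DESeq2 (1 was higher at an unadjusted p under 0.05), with estimates from -0.47 to 0.22, and 4 fell in shEGFR-NLS, among them STYXL1 (-0.43 ± 0.09, adjusted p = 0.000788).

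Among 8 ERK output genes outside the family, all 8 fell in ERL, 1 rose in cSNX, and 3 rose and 2 fell in shEGFR-NLS. SPRY4, an inhibitor of receptor tyrosine kinase signalling, fell by 4.995 ± 0.29 (adjusted p = 3.06e-09) in ERL, the transcription factor ETV5 fell by 3.96 and ETV4 fell by 3.08, and the cell cycle gene CCND1 fell by 2.42. In cSNX the called gene was PHLDA1, named here after its values were seen (0.88 ± 0.10, adjusted p = 8.44e-05), while DESeq2 called 3 of the 8 higher, and 5 were higher at an unadjusted p under 0.05 in edgeR. SPRY4, ETV5 and ETV4 rose in shEGFR-NLS by 0.72, 0.64 and 0.44, where DUSP6 did not pass, and CCND1 fell by 0.92. The median log2 change of the list was -2.31 in ERL, 0.34 in cSNX and -0.08 in shEGFR-NLS.

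Of the 11 immediate-early transcription factor genes tested, 10 fell and 1 rose in ERL, 1 rose and 2 fell in cSNX, and 4 rose and 2 fell in shEGFR-NLS. FOSL1 fell by 4.41 ± 0.14 in ERL and rose by 1.13 ± 0.10 in cSNX (adjusted p = 5.02e-06). EGR1 fell by 3.69 in ERL and fell by 1.75 in cSNX, and FOS fell by 3.18 in ERL and fell by 1.20 in cSNX. EGR3 fell by 2.20 in ERL and had an estimate of 0.19 in cSNX. FOSL1 rose by 0.88 in shEGFR-NLS and FOS fell by 0.60.

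**Figure D4:**
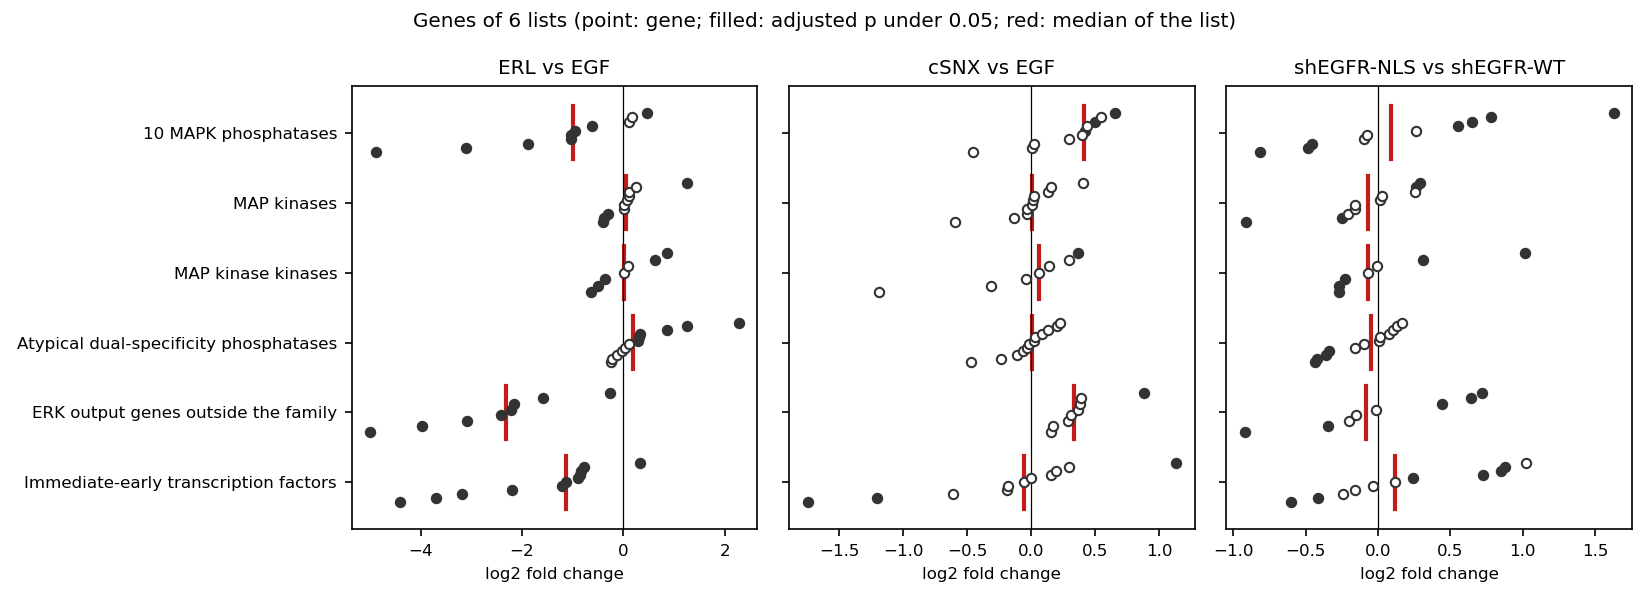
Log2 fold change (x axis; scales differ between panels) of each tested gene in 6 lists (y axis) in the 3 comparisons; filled points have an adjusted p under 0.05 and red lines are list medians. The medians of the MKPs and of the ERK output genes in ERL, -0.99 and -2.31, lie left of those of the MAP kinases and MAP kinase kinases, 0.04 and 0.02.

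To find the genes nearest each member, 13402 genes averaging 1 CPM or more were ranked by the root-mean-square (RMS) difference of log2 CPM. Each gene was centred on its own mean of the 15 libraries. For DUSP6 the nearest genes were SPRY4 (RMS difference 0.51), ETV5 (0.59) and IL1R2, the decoy receptor of interleukin-1 (0.71). For DUSP4 they were ELFN2 (0.31), ENSG00000237862 (0.31) and DKK1, a secreted Wnt inhibitor (0.33). For DUSP5 they were SEMA3B (0.15), TUBB6 (0.19) and PFKFB4 (0.22). The list for DUSP4 depended on the prior count, since 1 of the 3 genes stayed at a prior count of 0.5. In ERL, IL1R2 averaged 0.047 CPM, SPRY4 0.23, ELFN2 0.217 and ENSG00000237862 0.311, and log2 values that low depend on the prior count. IL1R2 also had an estimate of 2.09 in cSNX, against 0.65 for DUSP6.

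The other members had other neighbours. For DUSP1 they were DKC1 (0.15), SMARCA5-AS1 (0.15) and RRP1 (0.16), of which DKC1 and RRP1 act in ribosome production. For DUSP7 they were MTCL1 (0.17), PRELID3A (0.18) and PPAN (0.19). In DUSP7 and each of these genes, EGF replicate 2, cSNX replicate 1 and shEGFR-WT replicate 2 were the lowest of their group. The match thus includes differences between replicates as well as between groups. DUSP9 lay nearest to LOX (0.29), STC2 (0.30) and UBE2S (0.30), and DUSP8 to ANKRD10 (0.18), GRB10 (0.19) and FBXL12 (0.19). DUSP2, DUSP10 and DUSP16 varied by less than 1 log2 unit between groups and were not ranked.

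**Figure D5:**
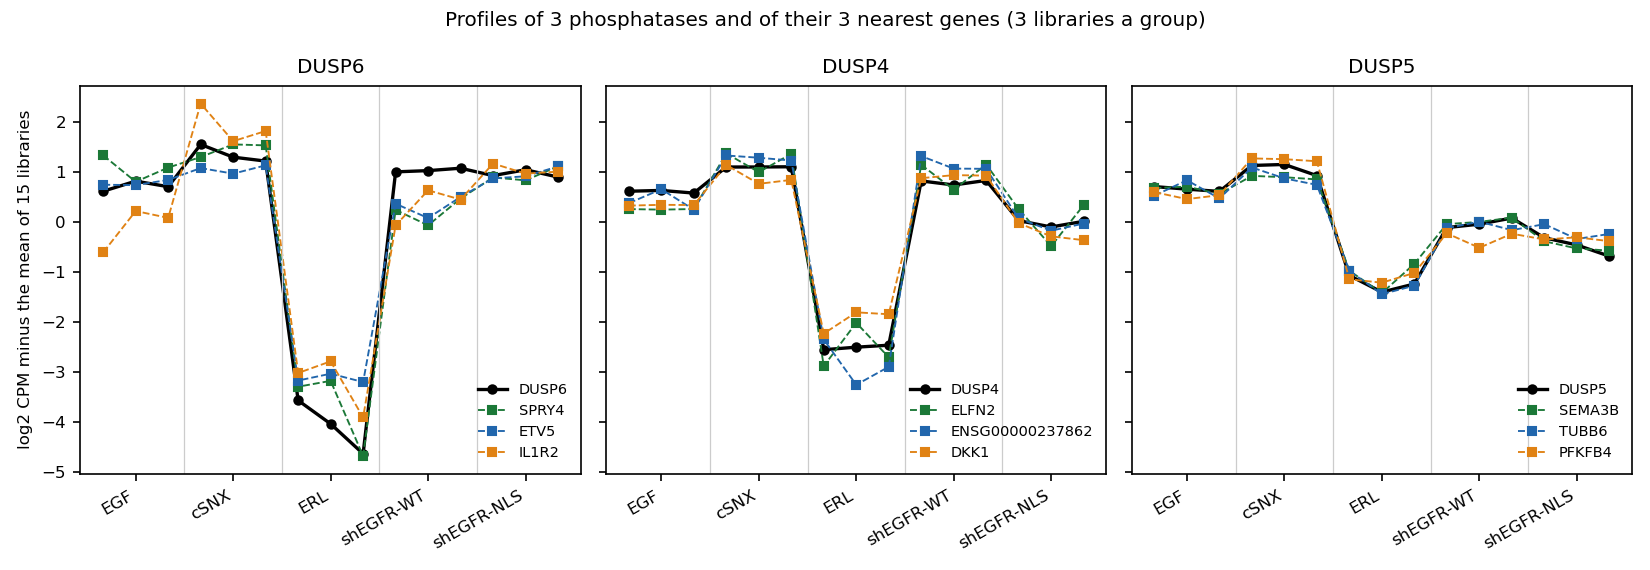
Log2 CPM minus the mean of the 15 libraries (y axis) of DUSP6, DUSP4 and DUSP5 (black) and of their 3 nearest genes (coloured) in each library, by group (x axis). Of the pairs drawn, DUSP5 and SEMA3B, with an RMS difference of 0.15, run closest together, and all 12 genes are lowest in ERL.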

How the data were processed

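Bulk RNA-seq of 15 MDA-MB-468 libraries was analysed from the deposited table of raw counts per Ensembl gene, in which the authors trimmed paired reads with TrimGalore, aligned them with STAR to GRCh38 and counted them with featureCounts without strand. The annotation release and the handling of reads that map to several places are not given in the sources used here. The submitters' processing notes also name DESeq2. Symbols, exon lengths and positions came from GENCODE 44 (61399 of 61552 genes matched). Libraries were scaled by TMM and low genes removed with filterByExpr. The test was edgeR 4.0.16 (R 4.3.3) robust quasi-likelihood with Benjamini-Hochberg adjustment over all genes tested, called at 0.05, in the 9 parental libraries, the 6 line libraries or, for differences of effects, all 15. CPM values are on the scale of all 15 libraries, and fold changes come from each fit. The labels do not say that replicates were separate cultures, so p-values measure the spread between these samples, which may be technical. No replicates were duplicates (chi-square per degree of freedom 2.69 to 24.5). The fits were tested on simulated data.

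The members and gene lists were chosen with earlier results of these data known. Named are all members, EGFR, the MAP kinases except 1 that is not reported here, up to 4 genes of each other list with the largest absolute change in ERL vs EGF, and the 3 nearest genes of each member whose group means span over 1 log2 unit. Alternatives were DESeq2 1.42.0 as test or scaling, other filters, groups, thresholds, lengths and prior counts, a replicate block, and leaving out each library. Another scaling moved the median log2 change of all genes by under 0.1. DUSP4 and DUSP5 had no promoter window.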

Additional observations from a re-analysis of the deposited data

Results flagged for a closer look

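The effect of the nuclear localization sequence mutation (shEGFR-NLS minus shEGFR-WT) was compared with the effect of each agent (agent minus EGF). The test was of their difference in all 15 libraries. Among the 10 members, 13 such differences passed an adjusted p under 0.05 in edgeR's quasi-likelihood test, 5 against cSNX1.3 and 8 against erlotinib. Of all 16524 genes, 23.1% passed against cSNX1.3 and 44.7% against erlotinib. Against cSNX1.3, the mutation effect was lower by 1.31 ± 0.10 (log2, SE) for DUSP4, written -1.31, and the differences were -0.87 ± 0.15 for DUSP5, -0.72 ± 0.16 for DUSP6, -0.50 ± 0.11 for DUSP16 and 1.09 ± 0.32 for DUSP9. The adjusted p-values were 2.01e-09, 0.000146, 0.00254, 0.00195 and 0.0166, in that order. DUSP4 and DUSP5 moved in opposite directions under the mutation and the peptide, while DUSP6 rose by 0.65 with the peptide and had an estimate of -0.08 under the mutation. For DUSP9 both estimates were positive, 1.63 and 0.55.

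Against erlotinib, the mutation effect was higher by 4.82 ± 0.23 for DUSP6, 2.66 ± 0.33 for DUSP9, 2.30 ± 0.10 for DUSP4, 1.81 ± 0.27 for DUSP7, 1.44 ± 0.15 for DUSP5, 1.28 ± 0.19 for DUSP1 and 0.87 ± 0.27 for DUSP2. For DUSP16 the difference was -0.95 ± 0.11. The largest adjusted p of the 8 was 0.0114, for DUSP2. Erlotinib raised DUSP16 and lowered DUSP1, DUSP7 and DUSP9, and the mutation did the opposite for each of these 4. In DUSP4 and DUSP5 both effects were falls, and that of erlotinib was the larger. EGFR differed between the lines, by 0.37, and had a similar estimate in cSNX vs EGF, 0.38 (edgeR adjusted p = 0.0622). The lines and parental cells may also have had another EGF dose or time. These differences cannot be told apart from the mutation and agent effects here.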

How the results depend on the processing

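Every call of the members in ERL vs EGF and in shEGFR-NLS vs shEGFR-WT held its direction under each alternative run, and 60 of 60 and 58 of 60 fits without a library gave the same verdict, respectively. Such fits gave the same verdict in 46 of 60 for cSNX vs EGF and in 56 of 60 for cSNX vs ERL. In cSNX vs EGF the count of members called was 1 without EGF replicate 1 and up to 3 otherwise when a library was left out, against 3 in all libraries. An equal count did not mean the same genes. In place of DUSP5, DUSP9 was called without EGF replicate 2, DUSP8 without EGF replicate 3 and DUSP7 without cSNX replicate 1. The number of genes called there was 956, and it was 1444 when all 15 libraries shared the spread, 470 at an adjusted p under 0.01 and 526 to 892 without 1 library each. The low values came without EGF replicate 1 (531), EGF replicate 3 (592) and cSNX replicate 2 (526), and the fits without a library had fewer samples. DUSP8 crossed the threshold with all 15 libraries in cSNX vs EGF (adjusted p = 0.0461) and in cSNX vs ERL (0.0402). DUSP9, in the mutation effect minus the cSNX effect, missed it without shEGFR-NLS replicate 1 (0.0552), and DUSP8, in the mutation effect minus the ERL effect, passed without EGF replicate 2 (0.0354).

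Signs turned only for members that no fit called. DUSP10 in cSNX vs EGF, at 0.00 in the report, was -0.0142 with no filter, -0.00155 with at least 10 counts in every library and -0.00542 with only the 2 groups compared, and ranged from -0.0698 to 0.0752 without 1 library. Without 1 library, DUSP16 in cSNX vs EGF ranged from -0.0122 to 0.0588, DUSP2 in shEGFR-NLS vs shEGFR-WT from -0.213 to 0.0487, DUSP8 in the mutation effect minus the cSNX effect from -0.0450 to 0.232, and DUSP10 in the mutation effect minus the ERL effect from -0.11 to 0.25. The causes were not tested. DUSP6 could not be fitted with at least 10 counts in every library, since 1 ERL library had 7.

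Replicate numbers are shared between groups but nothing says they mark a shared culture. Same-numbered libraries had correlations of deviations from -0.20 to 0.25 over the 4 comparisons, over 0.1 in at most 1 of 3 pairs, and the samples that correlated best with their own number were 2 of 6 in ERL vs EGF and in cSNX vs EGF, 4 of 6 in cSNX vs ERL and 0 of 6 in the lines, so the numbers were not taken to pair samples. Across numbers, EGF replicate 2 correlated at 0.375 with cSNX replicate 1 and at -0.324 with cSNX replicate 3. What these libraries share was not tested. With the replicate block the members called numbered 8 in ERL vs EGF, 3 in cSNX vs EGF, 7 in shEGFR-NLS vs shEGFR-WT and 8 in cSNX vs ERL, and the block changed no call of a member. It gave 6707, 841, 5766 and 8643 genes called. TPM depends on the length used: with the longest transcript the mean of DUSP5 in EGF was 29.7 TPM rather than 40.7. The nearest genes at a prior count of 0.5 kept 1 of 3 for DUSP4 and 2 of 3 for DUSP9.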

Other observations

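EGFR averaged 4733 CPM in EGF and 1340 CPM in shEGFR-WT, and its libraries did not overlap. Of the 10 members, 8 had a lower mean in shEGFR-WT than in EGF, among them DUSP9 at 1.18 against 4.06 CPM, DUSP8 at 2.59 against 6.54 CPM and DUSP5 at 18.2 against 29.2 CPM. DUSP10 and DUSP16, also among the 8, overlapped between these groups. DUSP6 and DUSP4 had the higher mean in shEGFR-WT. DUSP6 averaged 12.8 ± 0.902 CPM (SD, n = 3) in EGF and 16.01 ± 0.414 CPM in shEGFR-WT, and DUSP4 averaged 102 and 116 CPM, with no overlap for either. The share of all genes that were lower in shEGFR-WT, or did not overlap between these groups, was not computed. The count of 8 members therefore cannot be read as particular to the family. The groups differ in cells, construct and possibly EGF treatment, and no test was made between them.

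DUSP5-DT, a lncRNA on the opposite strand with 1316 bases between its start and that of DUSP5, was examined after its values were seen. It had 1.92 to 2.05 CPM in EGF and 0.529 to 1.06 CPM in ERL, a change of -1.38 ± 0.27 (log2, SE; edgeR adjusted p = 0.000602). In cSNX, where DUSP5 rose by 0.42, DUSP5-DT had an estimate of 0.16 ± 0.24 (adjusted p = 0.778). In the lines DUSP5-DT had 2.45 to 2.91 CPM in shEGFR-WT and 1.85 to 2.85 CPM in shEGFR-NLS, and the latter overlapped EGF. No test was made between the lines and the parental cells.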
